A study of Mus musculus with 15 samples.

Results

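The BCL2 family survival and death genes were followed in mouse embryonic fibroblasts (MEFs) across 5 culture conditions. The 10 genes were taken by name: the guardians *Bcl2*, *Bcl2l1* and *Mcl1*, the pore formers *Bax* and *Bak1*, the BH3-only genes *Bid*, *Bcl2l11*, *Bbc3* and *Pmaip1*, and *Cflar*, which codes for the caspase-8 inhibitor c-FLIP and is a partner of the family rather than a member by sequence. Every probe that was not a control spot and whose identifier was a RefSeq transcript of one of these genes was kept. They were 10 of the 23462 genes named on the array, with 22 of its 56605 probes. All 10 genes had a probe that passed the filter on dim probes, and 21 of the 22 probes were tested. Where a gene had several probes, the brightest over the 15 arrays stood for it and the others are given beside it.

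The cells were the Balb/c 3T3 clone A31, an established line that comes from 1 clone, so that the arrays do not sample different animals. Untreated cultures were the controls, and the other groups received TNFα at 10 ng/ml, TGFß1 at 5 ng/ml, IL-1β at 1 ng/ml, or IL-6 at 20 ng/ml with its soluble receptor sIL-6Rα at 25 ng/ml. All cultures, controls included, were grown in serum with penicillin and streptomycin. Each group held 3 one-color arrays, numbered by the figure that opens their label. Per the labels, cultures were kept for 24 h or 72 h, without saying which arrays had which. By the study's results text the control, TNFα and TGFß1 arrays were of the 24 h cultures, and the exposure of the IL-1β and IL-6 groups was not stated. The study calls its arrays biological replicas, but the labels do not tie an array to an experiment, so the q-values measure the spread between these arrays.

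The BCL2 family decides whether a damaged or starved cell keeps its mitochondria intact. BAX and BAK form pores in the outer mitochondrial membrane, which release cytochrome c and start the caspase cascade. BCL-2, BCL-XL (from *Bcl2l1*) and MCL-1 hold them in check, and the BH3-only proteins relieve that check or activate the pore formers directly. BID links this mitochondrial route to the death receptors, because caspase-8 cuts it into its active form after TNFα or Fas ligand binds, while c-FLIP blocks caspase-8 at the receptor. Fibroblasts treated with TNFα usually survive, since NF-κB induces protective genes, and resistance of myofibroblasts to apoptosis is a known feature of fibrosis.

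The 250 bases before the starts of *Bid* and *Bcl2l1* are shown, 5′ to 3′ and on the strand of the gene, because *Bid* moved most with TNFα and *Bcl2l1* was the member called lower with TGFß1. The sequences are from RefSeq on GRCm38.p6, and *Bcl2l1* has 3 listed starts, of which the outermost held none of the motifs searched and is not shown. Capitals mark the letters of a κB motif (GGGNNTTCC) or a SMAD motif (CAGAC), searched on both strands, and these motifs share no bases here.
*Bid*, chr6:120916825-120917074, minus strand: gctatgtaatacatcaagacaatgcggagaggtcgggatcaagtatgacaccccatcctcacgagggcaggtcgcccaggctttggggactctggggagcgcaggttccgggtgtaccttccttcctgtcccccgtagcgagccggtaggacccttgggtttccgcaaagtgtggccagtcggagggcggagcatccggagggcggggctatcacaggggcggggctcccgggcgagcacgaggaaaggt
*Bcl2l1*, middle start, chr2:152830718-152830967, minus strand: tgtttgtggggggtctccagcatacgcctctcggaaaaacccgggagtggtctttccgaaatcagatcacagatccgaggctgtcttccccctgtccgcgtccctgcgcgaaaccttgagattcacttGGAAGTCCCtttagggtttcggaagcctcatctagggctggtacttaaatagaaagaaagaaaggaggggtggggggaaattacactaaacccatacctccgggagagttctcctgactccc
*Bcl2l1*, innermost start, chr2:152828490-152828739, minus strand: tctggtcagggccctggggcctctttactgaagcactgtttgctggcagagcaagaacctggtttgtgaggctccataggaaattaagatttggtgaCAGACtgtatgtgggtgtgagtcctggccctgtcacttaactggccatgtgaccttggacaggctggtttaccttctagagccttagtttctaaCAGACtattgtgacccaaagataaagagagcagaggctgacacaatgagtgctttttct

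No κB or SMAD match lay in the *Bid* window. The middle *Bcl2l1* window held 1 κB match and the innermost 2 SMAD matches. Over 32851 mouse promoter windows of the same length, 4.98% held the κB letters and 42.2% the SMAD letters, so that a SMAD match is common. The letters of a FOXO motif (GTAAACA, in 3.17% of windows) lay once in the outer *Bcl2l11* window and once in 1 of 3 *Bbc3* windows, and those of an AP-1 motif (TGANTCA, in 6.75%) in none of the members' windows. Of the other members' windows, 1 of *Bbc3* held the κB letters, and *Bak1*, *Bcl2l11*, *Bbc3* and *Cflar* held the SMAD letters. A match describes letters only, and *Pmaip1* was not searched.

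The levels are log2 processed signals minus the array's 75th percentile, so that 0 is the brightness at that percentile and each unit is a doubling. Calls needed both q < 0.05 in limma's moderated test, adjusted over 29334 probes, and a change of 1.5-fold or more in either direction. Probes differ in how brightly they light up, and levels were compared between groups, never between probes. In bulk RNA, fewer cells with a transcript and less of it per cell cannot be told apart.

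Facts of the whole series bear on these values in a few ways. Between 48.3% and 54.9% of the probes on an array were well above background. The arrays lay on 2 slides that did not hold the groups evenly, and 36.6% of the tested probes differed between slides at q < 0.05, so values with the slide as a block or within each slide are given for calls against control on the brightest probes. With the slide as a block, all calls between groups on the brightest probes were kept but that of *Bak1*, and 1 of *Cflar* was gained. The labelled treatments showed in 4 of 4 response genes for TNFα and for IL-1β (*Nfkbia*, *Ccl2*, *Cxcl1*, *Icam1*), in *Smad7*, *Ccn2* and *Tagln* for TGFß1 and in 2 of 4 for IL-6 (*Socs3* and *Bcl3*, but not *Stat3* or *Junb*). *Bcl3* was not particular to IL-6 (log2 fold-change 1.65), as it was also called higher with TNFα (1.14) and IL-1β (1.23). All 10 fibroblast markers were well above background on all 15 arrays. The leukocyte markers *Ptprc*, *Adgre1* and *Lyz2* were so on none of them, while the other 4 of 7 markers of that list were on all. The log2 summed level of all 7 was 3.43 to 4.48 in controls and 3.67 to 4.57 with TNFα. The largest part of the sum was *Itgam*, with a mean level of 3.58 in controls and 4.01 with TNFα. None of 5 epithelial and 3 muscle markers and 1 of 4 endothelial markers was above background on all arrays. The epithelial keratin *Krt8* was called higher with TGFß1, with a mean level of -5.25 in controls and -3.07 with TGFß1. It was well above background on all 3 TGFß1 arrays and on no control array, so that it was at least 3.36-fold higher. It passed the filter on dim probes through the TGFß1 group alone, and its part in the TGFß1 results was not tested. The leukocyte gene *Cd14* was called higher with TNFα, by 0.79 (limma's q = 0.00301), and its part in the TNFα results was not tested.

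**Figure D1:**
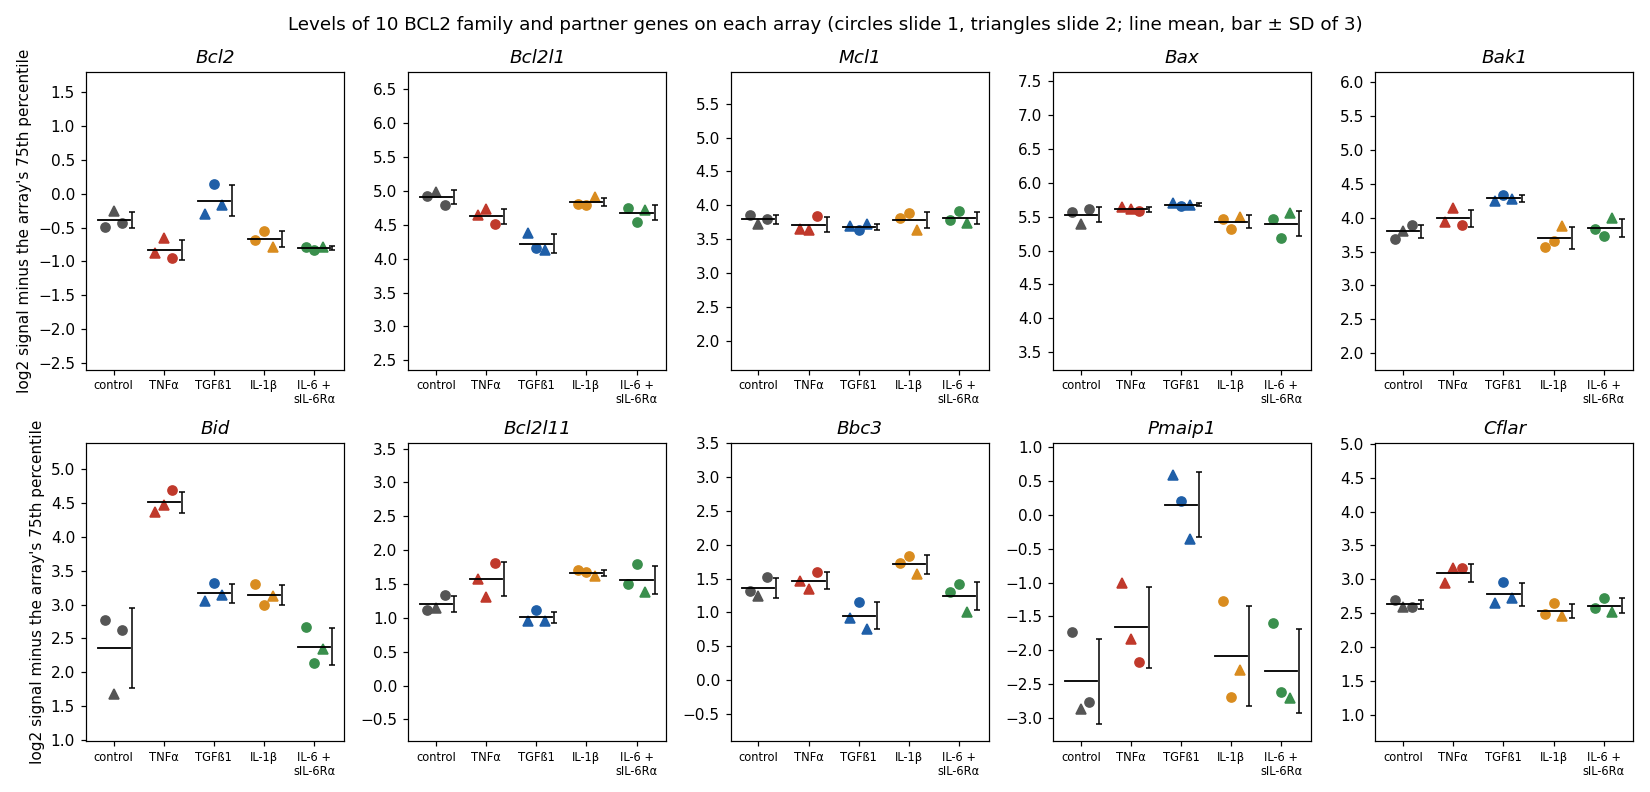
Each panel shows 1 gene, with the level on each of the 15 arrays (log2 processed signal minus the array's 75th percentile, same span in all panels) against the 5 groups. Circles are arrays of slide 1 and triangles of slide 2, lines are group means and bars the SD of 3 arrays. *Bid* on the TNFα arrays (4.37 to 4.69) and *Pmaip1* on the TGFß1 arrays (-0.36 to 0.59) stand clear of all other arrays, while *Mcl1* spans only 3.63 to 3.91 over all of them.

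With TNFα and on the brightest probe of each gene, *Bid* alone was called higher among the 10 genes and none was called lower. Of the 21 tested member probes, 4 were called higher and none lower. Over all tested probes, 4.09% were called higher and 5.96% lower in the same comparison. With TGFß1, *Pmaip1* and *Bid* were called higher and *Bcl2l1* lower, where 7.51% of all probes were called higher and 10.4% lower. No member was called with IL-1β (0.232% of all probes in either direction) or with IL-6 (0.058%). At an unadjusted p below 0.05 limma gave 3 of the 10 genes with IL-1β and 2 with IL-6, against 3.61% and 3.18% of all probes. The median log2 fold-change of the 10 genes was 0.15 with TNFα, 0.15 with TGFß1, -0.04 with IL-1β and 0.00 with IL-6, and that of all tested probes was 0.04, 0.07, 0.00 and 0.00.

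**Figure D2:**
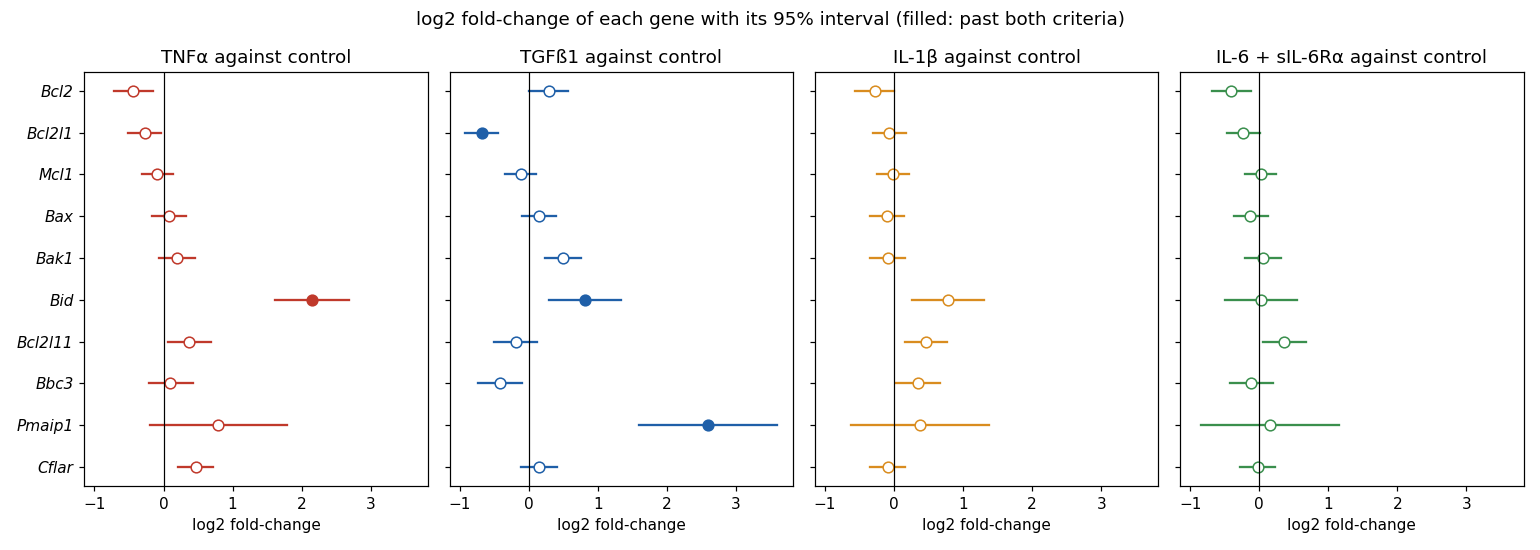
The log2 fold-change of each gene against control (horizontal axis) is drawn with its 95% interval from limma for each of the 4 treatments, with filled points for the called genes. The filled points are *Bid* with TNFα (2.15), and *Bcl2l1* (-0.68), *Bid* (0.81) and *Pmaip1* (2.60) with TGFß1.

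*Bid*, which codes for the protein that carries the death receptor signal to mitochondria, is the gene that moved most with TNFα (NM_007544, chr6:120893119-120917062 on GRCm38.p6). Its level was 2.77, 1.68 and 2.63 on control arrays 1, 6 and 11. On TNFα arrays 4, 9 and 14 it was 4.37, 4.47 and 4.69. All TNFα arrays lay far above all controls, and control 6 lay about 1 unit under the other controls. The rise was 2.15 on the log2 scale (SE 0.24, 95% interval 1.62 to 2.68), a 4.44-fold increase with limma's q = 0.000113. With the slide as a block it was 2.26, and it was 1.99 within slide 1 and 2.74 within slide 2. Without control 6 the rise was 1.81, with limma's q = 8.53e-05, and it stayed called with any 1 array left out.

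*Bid* stood lower with the other treatments than with TNFα. Its level was 3.05, 3.32 and 3.14 on TGFß1 arrays 2, 7 and 12. On IL-1β arrays 5, 10 and 15 it was 3.30, 3.00 and 3.12. On IL-6 arrays 3, 8 and 13 it was 2.67, 2.14 and 2.35. The TGFß1 and IL-1β arrays overlapped each other and lay above every control, and the IL-6 arrays lay among the controls. The difference from control was 0.81 for TGFß1 (SE 0.24, limma's q = 0.0287) and 0.78 for IL-1β (SE 0.24, limma's q = 0.62), which an interval of -0.56 to 0.50 for IL-1β minus TGFß1 does not separate. For TGFß1 the difference was 0.92 with the slide as a block. The call depended on control 6, without which the difference was 0.47 (limma's q = 0.0727). It was also lost without any 1 of the TGFß1 arrays (q of 0.0573 to 0.0861), in a fit of the 6 arrays of both groups (q = 0.108), within slide 1 alone (0.62, q = 0.266) and without the filter on dim probes (q = 0.0665). With IL-1β it was called only with both the slide and the runs of label numbers as blocks, at a log2 fold-change of 0.78 and limma's q = 0.0404.

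Direct tests set TNFα apart from each of the other treatments for *Bid*. The level with TNFα was above that with TGFß1 by 1.34 (limma's q = 0.00225), above IL-1β by 1.37 (q = 0.00604) and above IL-6 by 2.12 (q = 0.000124). It was called in 3 of 3 of these comparisons. Over all probes, 11.8%, 4.69% and 8.59% were called in them. The order of the groups was thus TNFα, then TGFß1 and IL-1β, then IL-6 and control. The neighbouring pairs TGFß1 and IL-1β (0.03), IL-1β and IL-6 (0.76, limma's q = 0.464) and IL-6 and control (0.03) were not called, and only the step from TNFα to TGFß1 was.

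*Pmaip1* codes for NOXA, a BH3-only protein that neutralises MCL-1 and is a p53 target (NM_021451, 1 probe). Its level was -1.73, -2.87 and -2.77 on control arrays 1, 6 and 11. On TGFß1 arrays 2, 7 and 12 it was 0.59, 0.20 and -0.36. Every TGFß1 array lay more than 1 unit above every control. The rise was 2.60 (SE 0.46, 95% interval 1.60 to 3.60), a 6.08-fold increase with limma's q = 0.00166. It was 2.66 with the slide as a block, 2.46 within slide 1, where the call was lost (limma's q = 0.157), and 2.99 within slide 2. With normexp background correction it was 1.88 and stayed called. With 1 array left out it lay between 2.38 and 2.97 and stayed called.

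In the other groups *Pmaip1* was dim and spread widely. It was -1.00, -1.83 and -2.17 on TNFα arrays 4, 9 and 14. On IL-1β arrays 5, 10 and 15 it was -1.27, -2.69 and -2.29. On IL-6 arrays 3, 8 and 13 it was -1.59, -2.61 and -2.71. The TNFα, IL-1β and IL-6 arrays overlapped the controls. The array with the lowest label number was the highest of its group in all 5 groups, with a mean over groups of -1.00 for the arrays numbered 1 to 5, -1.96 for 6 to 10 and -2.06 for 11 to 15. The labels do not say what the numbers stand for. With TNFα the log2 fold-change was 0.79 (SE 0.46, limma's q = 0.309). It was called with these runs as a block (0.79, limma's q = 0.00971) and with the slide and the runs (0.81, q = 0.00617), but it was 0.08 within slide 1 and 1.46 within slide 2.

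Compared directly, *Pmaip1* was higher with TGFß1 than with TNFα, with a difference of -1.81 for TNFα minus TGFß1 (limma's q = 0.0177). IL-1β minus TGFß1 was -2.23 (q = 0.0046) and TGFß1 minus IL-6 was 2.45 (q = 0.00264). It was thus called in each comparison with TGFß1. Among all probes 16.9% were called between IL-1β and TGFß1 and 16.3% between TGFß1 and IL-6.

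*Bcl2l1*, whose main product BCL-XL guards the mitochondrial membrane, fell with TGFß1 (NM_001289716, chr2:152758732-152833803 on GRCm38.p6). Its brightest probe was at 4.93, 4.99 and 4.80 on control arrays 1, 6 and 11. On TGFß1 arrays 2, 7 and 12 it was at 4.38, 4.16 and 4.13. The groups did not overlap and each was tight. The log2 fold-change was -0.68 (SE 0.11, 95% interval -0.92 to -0.44), which is 1.61-fold lower with limma's q = 0.000926. With the slide as a block it was -0.72, and with 1 array left out it lay between -0.76 and -0.64 and stayed called. Within slide 1 it was -0.71 (limma's q = 0.0999, with 1 TGFß1 array there) and within slide 2 -0.74 (q = 0.0409, with 1 control array).

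All 5 *Bcl2l1* probes were lower with TGFß1, and 4 of them were called. The other 4 gave -1.03 and -1.09, which were called, -0.86, which was not (limma's q = 0.0622), and -1.24, which was called at q = 0.0291 and was well above background on 2 of the 3 TGFß1 arrays. On all 5 probes the TGFß1 arrays lay below every control, but these probes read 1 gene on the same arrays. The share of all probes that separate in this way was not computed. With TNFα the same 5 probes gave -0.27 to -0.50 and none was called. The level of the brightest probe was 4.64, 4.74 and 4.52 on TNFα arrays 4, 9 and 14, under all controls. It was 4.80 to 4.91 with IL-1β and 4.55 to 4.75 with IL-6. Control stood highest, then IL-1β, IL-6, TNFα and TGFß1, and no neighbours in this order were called. TNFα exceeded TGFß1 by 0.41, at limma's q = 0.0237 but under the fold-change of 1.5, and IL-1β exceeded TGFß1 by 0.62 (q = 0.00197), which was called.

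**Figure D3:**
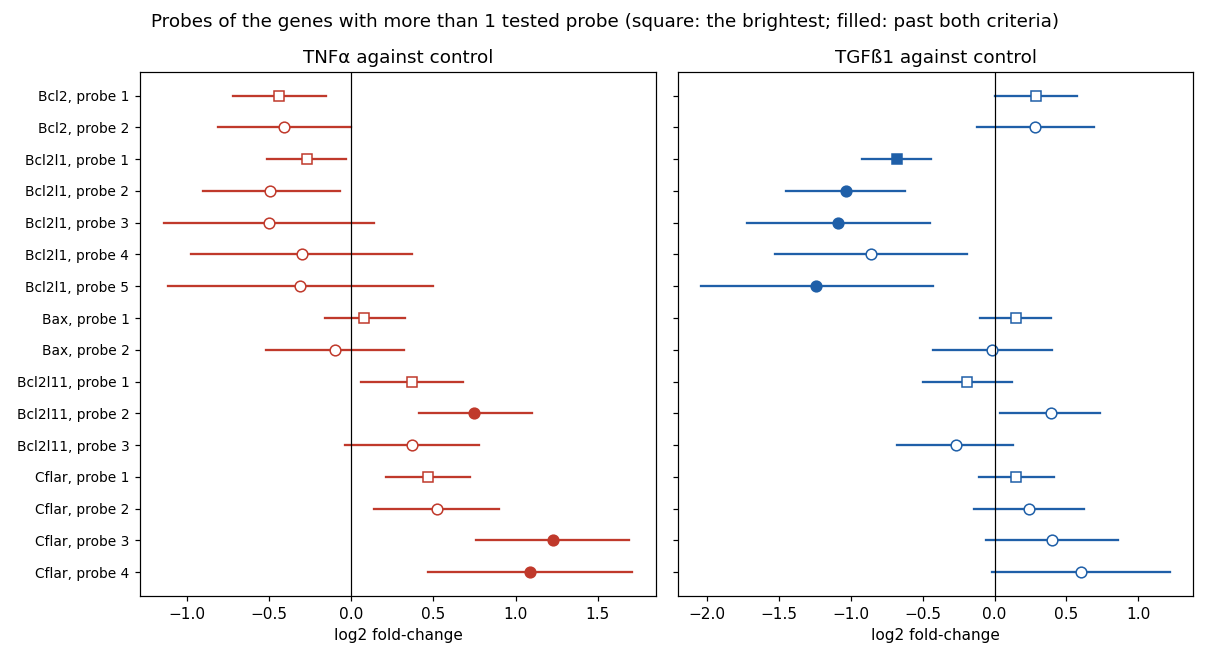
For the 5 genes with more than 1 tested probe, the log2 fold-change of each probe with its 95% interval is shown for TNFα (left) and TGFß1 (right). Squares are the brightest probe of a gene and filled marks are called. All *Bcl2l1* probes lie below 0 with TGFß1 (-0.68 to -1.24), and all *Cflar* probes above 0 with TNFα (0.47 to 1.23).

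*Bcl2*, the founding survival gene of the family, separated the treatments more than it separated any of them from control. It lay at -0.49, -0.26 and -0.43 on control arrays 1, 6 and 11. On TNFα arrays 4, 9 and 14 it lay at -0.87, -0.66 and -0.95. On TGFß1 arrays 2, 7 and 12 it lay at -0.30, 0.15 and -0.16. The TNFα arrays were all under the controls, and the TGFß1 arrays overlapped them from above. With TNFα the log2 fold-change was -0.44 (SE 0.13), with limma's q = 0.0469 and below the fold criterion, and with TGFß1 it was 0.29 (limma's q = 0.136). TNFα minus TGFß1 was -0.72 (limma's q = 0.00225), which was called, and the second *Bcl2* probe gave -0.69 (q = 0.023). TGFß1 also exceeded IL-6, by 0.70 on the first probe (q = 0.0027) and 0.73 on the second (q = 0.0145). The IL-1β arrays lay between -0.79 and -0.55 and the IL-6 arrays between -0.83 and -0.78, under every control, with log2 fold-changes of -0.28 and -0.41 that were not called. TGFß1 stood highest, then control, IL-1β, IL-6 and TNFα, and no neighbours differed at q < 0.05.

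*Mcl1*, a short-lived survival protein that is largely controlled at the level of protein stability, was the steadiest of the 10 genes. Over all 15 arrays it lay between 3.63 and 3.91. Its log2 fold-changes were -0.09 with TNFα (95% interval -0.31 to 0.14), -0.11 with TGFß1 (-0.34 to 0.11), -0.01 with IL-1β (-0.24 to 0.21) and 0.02 with IL-6 (-0.21 to 0.24). These intervals leave out a change of 1.5-fold in either direction. No neighbouring groups were called.

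The pore former *Bax* varied little as well. Its level lay between 5.40 and 5.61 in controls, 5.58 and 5.65 with TNFα, and 5.66 and 5.70 with TGFß1. With IL-1β it lay between 5.32 and 5.49, and with IL-6 between 5.18 and 5.56. The TGFß1 arrays were above every control, by a margin smaller than the spread of the controls. The log2 fold-change was 0.15 (95% interval -0.10 to 0.39) with TGFß1 and 0.08 (-0.16 to 0.33) with TNFα, and the second probe gave -0.02 and -0.10.

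*Bak1*, the other pore former, was higher with TGFß1 at q < 0.05 without reaching 1.5-fold. The level was 3.69, 3.81 and 3.89 on control arrays 1, 6 and 11. On TGFß1 arrays 2, 7 and 12 it was 4.25, 4.34 and 4.28. The groups did not overlap. The log2 fold-change was 0.50 (SE 0.12, limma's q = 0.00932), and it was 0.55 within slide 1 and 0.46 within slide 2. With TNFα it was 0.19 (q = 0.335), and IL-1β minus TGFß1 was -0.59 (q = 0.00377), which was called. With the slide as a block this difference was -0.55, under the fold criterion, and the call was lost. TGFß1 stood highest, then TNFα, IL-6, control and IL-1β, and no neighbours were called.

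*Bcl2l11* codes for BIM, a BH3-only protein that binds all the guardians and is transcribed under FOXO control. On the brightest probe it lay at 1.11, 1.15 and 1.33 on control arrays 1, 6 and 11. On TNFα arrays 4, 9 and 14 it lay at 1.57, 1.31 and 1.81. On TGFß1 arrays 2, 7 and 12 it lay at 0.96, 1.11 and 0.95. The TNFα arrays overlapped the controls and the TGFß1 arrays lay just under the lowest control. The log2 fold-change was 0.37 with TNFα (limma's q = 0.116) and -0.19 with TGFß1 (q = 0.364). IL-1β arrays lay between 1.62 and 1.70, above every control, with a log2 fold-change of 0.47 (limma's q = 0.575). IL-1β exceeded TGFß1 by 0.66 (q = 0.00593), which was called.

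The probes of *Bcl2l11* disagreed. A second probe of the same transcript rose by 0.75 with TNFα (SE 0.16, limma's q = 0.00845), from -2.91 to -2.42 in controls to -1.98 to -1.73, and gave 0.39 with TGFß1, opposite in sign to the brightest probe and not called. Another probe, of the transcript NM_001284410, gave 0.37 and -0.27 and was not called. The remaining one was well above background on 1 of the 15 arrays and was not tested.

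*Bbc3* codes for PUMA, a BH3-only protein and p53 target. Its level lay between 1.24 and 1.53 in controls, 1.35 and 1.59 with TNFα, and 0.76 and 1.16 with TGFß1. With IL-1β it lay between 1.57 and 1.84, and with IL-6 between 1.01 and 1.42. The TGFß1 arrays were below and the IL-1β arrays above every control. Against control the log2 fold-change was -0.42 for TGFß1 (SE 0.15, limma's q = 0.0556) and 0.35 for IL-1β (SE 0.15, q of 1), and neither was called. IL-1β minus TGFß1 was 0.76 (limma's q = 0.00288), which was called. *Bbc3* was the only member that differed between the slides at q < 0.05 (-0.25 for slide 2 minus slide 1, limma's q = 0.0064), and with the slide as a block this difference was 0.68.

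*Cflar* was higher with TNFα on all 4 of its probes, and 2 of them were called. The brightest, of NM_207653, lay at 2.70, 2.59 and 2.59 on control arrays 1, 6 and 11. On TNFα arrays 4, 9 and 14 it lay at 2.94, 3.17 and 3.17. The groups did not overlap, but the log2 fold-change of 0.47 (SE 0.12, limma's q = 0.0213) stayed under the fold criterion. A probe of NM_009805 was dimmer and rose by 1.23 (SE 0.21, limma's q = 0.00262), from -2.60 to -2.23 in controls to -1.31 to -1.07. A probe of NM_001293804 rose by 1.09 (SE 0.29, q = 0.0253), with arrays that overlapped the controls, and a second probe of NM_207653 gave 0.52 (q = 0.0746).

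The probe of NM_009805 was also called in direct tests. It was higher with TNFα than with TGFß1 by 0.83 (limma's q = 0.0188), than with IL-1β by 0.93 (q = 0.0246) and than with IL-6 by 1.42 (q = 0.000951). On the brightest probe TNFα exceeded TGFß1 by 0.32, which was not called. TNFα stood highest on that probe, then TGFß1, control, IL-6 and IL-1β, and no neighbours were called.

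Between the treatments, 3 of the 10 genes were called for TNFα against TGFß1 (*Bid* higher, *Bcl2* and *Pmaip1* lower with TNFα) and 5 for IL-1β against TGFß1 (*Bcl2l1*, *Bcl2l11* and *Bbc3* higher, *Bak1* and *Pmaip1* lower with IL-1β), or 4 with the slide as a block, without *Bak1*. TGFß1 against IL-6 gave 3 (*Bcl2*, *Bid* and *Pmaip1*, all higher with TGFß1). Still on the brightest probes, TNFα against IL-1β and TNFα against IL-6 gave *Bid* alone. IL-1β against IL-6 gave none, where 0.399% of all probes were called. Over all probes, 11.8% were called for TNFα against TGFß1, 16.9% for IL-1β against TGFß1 and 16.3% for TGFß1 against IL-6. The shares were 4.69% for TNFα against IL-1β and 8.59% for TNFα against IL-6. With the slide as a block, 19.8% were called for IL-1β against TGFß1. These comparisons share arrays with each other and are not independent. On their brightest probes *Mcl1*, *Bax* and *Cflar* were called in no treatment pair or control comparison. With the slide as a block *Bak1* was called in none, and *Cflar* was called for TNFα against IL-1β, at 0.61 (limma's q = 0.00224).

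**Figure D4:**
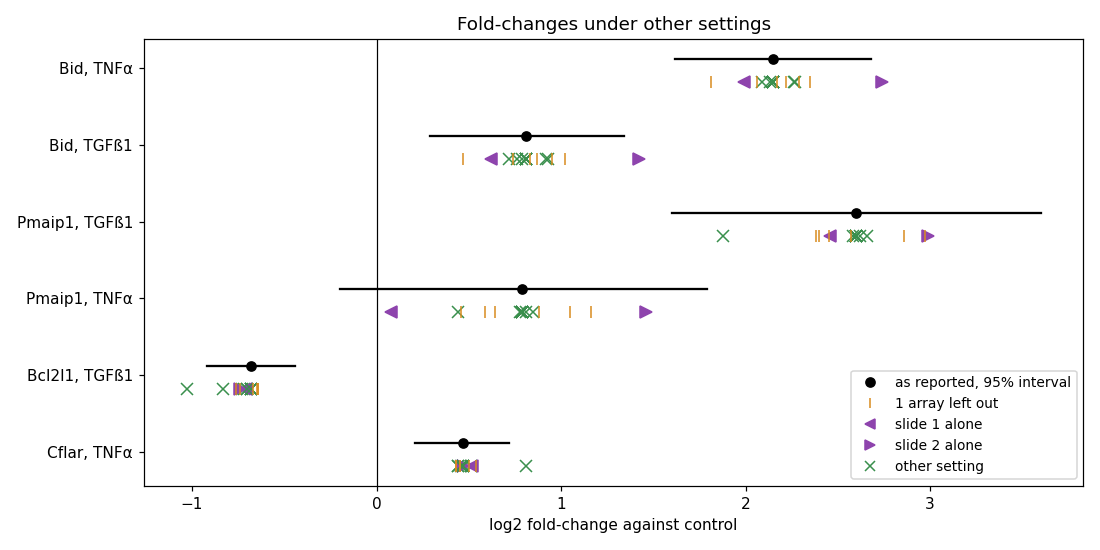
Black points are the log2 fold-changes against control with their 95% intervals for 6 gene and treatment pairs, and the coloured marks below each are the same value with 1 array left out, within 1 slide, or under another setting. *Bid* with TNFα stays between 1.81 and 2.74, *Bid* with TGFß1 spreads from 0.47 to 1.42, and *Pmaip1* with TNFα from 0.08 to 1.46.

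For each called gene, the genes whose levels ran most alike over the 15 arrays were taken from 13522 others, by Pearson's r. These r values describe arrays that share groups, slides and runs. For *Bid* they were *Il18r1*, *Ripk2* and *Slc25a37*, each with an r of 0.97. For *Pmaip1* they were *Tmem63b* (0.99), *Gm4907* (0.97) and *Tes* (0.96). For *Bcl2l1* they were *Snai2* (0.94), *Mterf2* (0.93) and *Spdya* (0.92).

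Other relatives of the family and of its pathway were measured beside the 10 genes, as 5 lists whose counts stand beside the shares of all probes, 4.09% called higher and 5.96% lower with TNFα, 7.51% and 10.4% with TGFß1. The lists are short and nothing particular to them was tested. Of 17 listed relatives, 15 had a probe and 10 were tested, of which 1 was called higher and 3 lower with TNFα, and 1 higher and 2 lower with TGFß1. *Bmf*, a BH3-only gene, went from -2.62 in controls to -5.78 with TNFα, where no array was well above background, so that it was at least 4.36-fold lower (limma's q = 0.0124). *Bcl2l15*, a poorly known relative, rose by 2.12 with TNFα (q = 2.68e-05). *Bok*, a further pore-forming relative, rose by 1.47 with TGFß1 (q = 0.0231). *Bnip3* and *Bnip3l*, BH3-like genes of mitophagy and hypoxia, had log2 fold-changes of -1.11 and -0.71 with TNFα and -0.94 and -0.99 with TGFß1, where *Bnip3* has no value on control 11, whose spot was marked as an outlier. The median of the list was -0.24 with TNFα and -0.02 with TGFß1. *Bcl2a1d*, *Bik*, *Hrk* and *Bcl2l14* were well above background on no array.

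The receptor end of the pathway, which lies upstream of *Bid* and *Cflar*, moved in both directions. Of 15 tested death receptor and necroptosis genes, 3 were called higher and 2 lower with TNFα, 1 higher and 4 lower with TGFß1, and 2 higher with IL-1β, where 0.232% of all probes were called in either direction. *Fas*, a death receptor, rose by 2.92 with TNFα (limma's q = 1.97e-07) and 1.69 with IL-1β, and its log2 fold-change with TGFß1 was -1.43. *Tnfaip3*, which codes for the NF-κB brake A20, rose by 3.84 with TNFα and 1.34 with IL-1β and was at -0.69 with TGFß1. *Traf1*, an adapter of TNF receptors, rose by 4.55 with TNFα (q = 0.000145). The gene called higher with TGFß1 was *Tnfrsf12a*, by 0.88 (limma's q = 0.0309). *Tnfrsf1a*, the main TNFα receptor of fibroblasts, fell by 0.73 with TNFα and by 0.59 with TGFß1, *Tnfrsf21* fell by 0.89 with TNFα, and *Cyld*, a deubiquitinase of the receptor complex, fell by 1.29 with TGFß1. With the slide as a block 4 rather than 3 were called higher with TNFα, and 2 rather than 1 with TGFß1. Over all probes 12% and 20.3% were then called in either direction. The median over the list was 0.20 with TNFα and -0.38 with TGFß1.

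Of 9 tested IAP genes, the inhibitors of apoptosis, 2 were called higher and none lower with TNFα, and none higher and 4 lower with TGFß1. The list's median was 0.13 with TNFα and -0.26 with TGFß1. *Birc3* and *Birc2*, which code for the cIAP proteins of the TNF receptor complex, rose by 2.25 (limma's q = 0.000101) and 0.84 (q = 0.00739) with TNFα and fell by 0.98 and 0.62 with TGFß1. *Naip6* and *Naip2*, inflammasome sensors by function, fell by 0.80 and 0.67 with TGFß1. With the slide as a block 3 rather than 4 were called lower with TGFß1. *Naip* genes lie in a family of near copies, and their probes may share signal.

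Downstream of the mitochondria, the 15 apoptosome and caspase genes were all tested. With TNFα 1 was called higher, and with TGFß1 1 higher and 3 lower. *Cycs*, cytochrome c itself, rose by 0.64 with TGFß1 (limma's q = 0.00309). The 3 that fell with TGFß1 were the inflammatory caspases *Casp1* (-1.67 on the log2 scale) and *Casp4* (-1.90), and *Casp12* (-1.17), and *Casp4* rose by 1.49 with TNFα. The initiator *Casp8* was not called in any comparison with control, and *Casp9* was at -0.51 with TNFα and -0.48 with TGFß1, at limma's q = 0.00423 and 0.00357 but under the fold criterion.

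Of 16 tested p53 and FOXO regulators and targets, which include the upstream regulators of *Bbc3*, *Pmaip1* and *Bcl2l11*, 2 were called higher and 3 lower with TNFα, and 1 higher and 2 lower with TGFß1. *Trp53* rose by 0.88 with TNFα (limma's q = 0.00201). *Mdm2*, the ligase that degrades p53, rose by 0.70 with TNFα and 0.68 with TGFß1. *Trp53inp1* fell by 0.80 and 0.74 and *Sesn1* by 0.67 and 0.64, and *Foxo1* fell by 0.69 with TNFα (q = 0.0472). With the slide as a block 2 rather than 3 were called lower with TNFα. The list's median was 0.12 with TNFα and 0.21 with TGFß1. No gene of the 5 lists was called with IL-6.

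**Figure D5:**
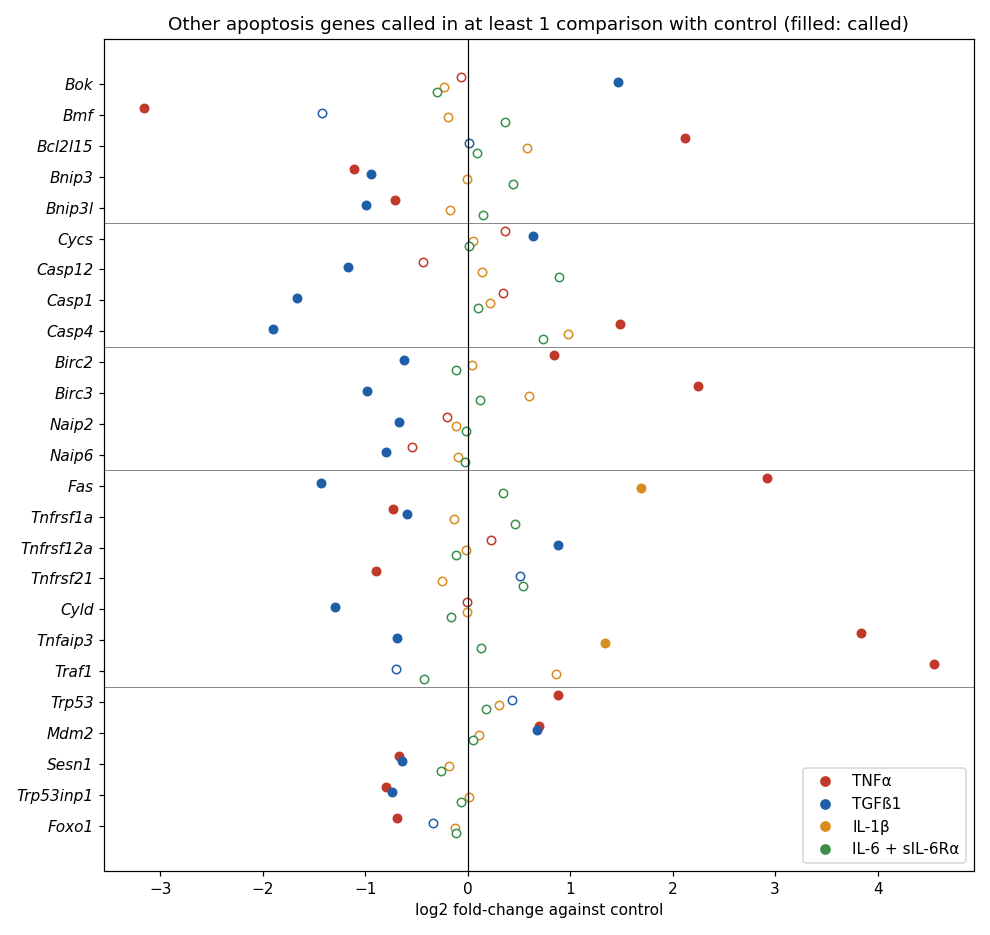
Genes of the 5 other apoptosis lists that were called in at least 1 comparison with control are shown by their log2 fold-change (horizontal axis) for each treatment, with filled points for calls and lines between the lists (from the top: other relatives, caspases, IAP genes, death receptor genes, p53 and FOXO genes). *Traf1* (4.55) and *Tnfaip3* (3.84) lie farthest right with TNFα and *Bmf* (-3.16 as measured) farthest left.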

How the data were processed

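Per the labels, RNA of 15 cultures was labelled with Cy3 and hybridized to 1 array each. The authors scanned the arrays and deposited the processed signal of each spot, an intensity that Agilent Feature Extraction 10.7.3.1 had corrected for background. The deposited values hold no scaling between arrays. Spots marked as outliers were dropped, the log2 intensities of a probe's remaining spots were averaged, and the array's 75th percentile over probes (325 to 445 as intensity) was subtracted. A probe entered the test if it was well above background on all 3 arrays of some group. Testing was done with limma 3.58.1 in R 4.3.3, all 15 arrays in 1 model of group means, with Benjamini-Hochberg q-values over all 29334 probes. The limma test, the q-value threshold and the fold-change of 1.5 are those the study used. The alternatives were slide and run blocks, normexp (offset 50, on the median signal because the mean signal is not in the columns used here), quantile normalization, other filters, other probes, each array left out and each slide alone. The fit was tested on simulated data. Probes were named through RefSeq transcripts (33767 of 56605). All 10 genes are named, with 3 likeness genes for each called member and up to 4 called genes per list and comparison. Members, lists and thresholds were chosen with earlier results of these data known. The number of arrays limits the precision. Levels of the genes' proteins were not analysed here. Some genes of the lists are not reported here.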

Additional observations from a re-analysis of the deposited data

How the results depend on the processing

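Of 720 fold-changes of single members against control under other settings, 706 kept their side of the call, most of them uncalled in the reported fit too. A call was lost in 9 and gained in 5. Over 18 settings each, *Bid* with TGFß1 lost the call in 7, *Bcl2l1* and *Pmaip1* with TGFß1 in 1 each, and *Bid* with TNFα in 0. None of a called gene changed sign, while 24 uncalled ones did, none of them from a value over 0.38 in size. Counts of members called changed as follows. For TNFα against control (1 gene), 2 were called with the slide and runs as blocks and with the runs as a block, and 3 without a minimum fold-change and with all tested probes of a gene. In the last setting a gene counted if any of its probes was called in the direction of the gene's median. Over all probes 10% were called for TNFα in that setting and in the reported fit. This share counts single probes, so it is not a like measure for a count of genes by any probe. The share over all genes was not computed. The share was 15.4% with the slide and runs, 13.1% with the runs and 12.5% without a minimum fold-change. For TGFß1 against control (3 genes), 2 were called without the filter on dim probes and with the 6 arrays of both groups alone. Without a minimum fold-change 4 were called. Within slide 1 alone the TGFß1 group has 1 array that is assumed to vary like the other groups, so only sizes are given here. They were -0.71 for *Bcl2l1*, 0.62 for *Bid* and 2.46 for *Pmaip1*. For TGFß1 against control the share of all probes was 17.9% in the reported fit and 7.87% without the filter on dim probes. It was 15.1% with the 6 arrays alone and 24.3% without a minimum fold-change. For IL-1β against control (0 genes), 1 was called with the slide and runs, where 1.1% of all probes were called in place of 0.232%. TNFα against IL-1β (1 gene) gave 2 with the slide and 2 with the slide and runs, with 6.18% and 10.5% of all probes in place of 4.69%. TNFα against IL-6 (1 gene) gave 2 and IL-1β against IL-6 (0 genes) gave 1 with the slide and runs. The shares of all probes there were 14.1% in place of 8.59% and 1.77% in place of 0.399%. TGFß1 against IL-6 (3 genes) gave 5 with quantile normalization and 2 with normexp, with 15.4% and 10.8% of all probes in place of 16.3%. IL-1β against TGFß1 (5 genes) gave 4 with the slide, with the slide and runs and with quantile normalization, and TNFα against TGFß1 (3 genes) gave 4 with quantile normalization. The shares of all probes for IL-1β against TGFß1 were 19.8%, 22.3% and 15.6% in place of 16.9%. For TNFα against TGFß1 the share was 11% in place of 11.8%. The cause was not tested. With each array left out in turn, the counts were 1 to 1 for TNFα, 2 to 3 for TGFß1, and 0 to 0 for IL-1β and for IL-6 against control, 2 to 4 for TNFα against TGFß1, 1 to 2 for TNFα against IL-1β, 1 to 1 for TNFα against IL-6, 3 to 6 for IL-1β against TGFß1, 0 to 0 for IL-1β against IL-6, and 2 to 3 for TGFß1 against IL-6. The 2 genes called for TNFα against IL-1β came without TNFα 4 or IL-1β 10, and the 3 for IL-1β against TGFß1 without TGFß1 7. Over all probes 2.52%, 2.27% and 15.1% were called in these fits. *Pmaip1* with TGFß1 was 1.88 with normexp in place of 2.60. The percentile over spots, chosen after seeing the data, changed no call. Over all probes, calls against control went from 2948 to 4522 for TNFα, from 68 to 323 for IL-1β and from 17 to 231 for IL-6 with the slide and runs, and to 350, 2 and 0 within slide 1 alone, where TGFß1 went from 5250 to 806, and to 3472 with normexp. With the arrays of both groups alone IL-1β had 20 and IL-6 had 0. The groups share no label numbers, so that no pairing is given by the labels. The runs (1 to 5, 6 to 10, 11 to 15) each hold 1 array of every group, and their use as a block is a fit on label order, of which the labels do not say what it stands for. Whether the runs are the independent experiments that the study names is not stated.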
